A study of Xenopus laevis with 13 samples.

Results

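The gene models described here carried no gene name in the deposited table of transcript abundance of single *Xenopus laevis* eggs and gastrulae. A member was a gene model written 'unnamed' or 'na' in the name field, with a transcript of at least 500 bases. The rule took 20724 of the 54110 gene models in the table, of which 20070 were written 'unnamed' and 654 'na'. Each gene model is 1 transcript per locus, built by the authors on the JGI 7.1 scaffolds with the program pita, and is named here by its scaffold and its first and last base. The 25839 named gene models of at least 500 bases served as the comparison.

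RNA was sequenced from 5 single eggs (NF stage 1, turned and uncleaved, taken 60 minutes after fertilization in vitro), from 5 single embryos at NF stage 10.5, when gastrulation has begun, and from 3 technical libraries of stage 10.5. The labels do not say how many embryos the technical libraries came from, and these libraries entered no test. All eggs came from a single female injected with human choriogonadotropin, and differences between females are therefore not in the p-values. The embryo libraries were made with a Kapa Hyper Prep kit and a USER digestion, steps that are not given for the eggs, and stage and library preparation therefore cannot be told apart in any comparison below. An egg is a single cell, whereas each embryo was a whole animal of many cells, in which fewer cells of a type and less RNA per cell cannot be told apart.

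At fertilization an egg of *Xenopus* holds RNA that the mother laid down during oogenesis, and the embryo transcribes little until the midblastula. Maternal RNAs are then cleared while zygotic genes are switched on, among them the regulators that set out endoderm, mesoderm and neural plate in the gastrula. The genome of *X. laevis* is allotetraploid, so that many genes are present as a pair of similar copies, and a gene model without a name can be a protein-coding gene that found no match, a non-coding RNA, a repeat or a fragment of a neighbour. The deposited FPKM (fragments counted per kilobase and mapped reads) allows levels to be compared between gene models of different length. How the libraries were scaled to each other is not given in the sources used here.

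Depth was recovered from the steps in low FPKM values and lay between 1505733 and 2922652 reads in eggs, between 1366787 and 3817575 in embryos and between 725911 and 1175489 in technical libraries. As a check of the stage labels, 4 of 6 tested gene models of maternal marker genes were higher in eggs and none in embryos, and 23 of 24 of early zygotic marker genes were higher in embryos. Egg 3 had the fewest members at or above 1 FPKM, and egg 5 held 73.9% of its member FPKM in 5 gene models, against 11.5 to 16.2% in the other eggs.

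The members were shorter and simpler than named gene models. Their median transcript length was 1131 bases, with 2 exons and 582 annotated coding bases, against 2176 bases, 9 exons and 1332 coding bases in named gene models. Only 98 members had a single exon, 10616 had 2, 7161 had 3 to 5 and 2849 had 6 or more. Gene models with 2 exons made up 51.2% of the members and 5.70% of named gene models. The genomic span was a median of 2.77 times the transcript length in members and 9.31 times in named gene models. The members lay on 1940 of the 2172 scaffolds that hold a gene model.

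The deposited file of gene model positions gave a gene name to 3034 of the 20724 members. These names comprised 2297 distinct symbols, of which 1733 stood on 1 member each, and 2366 of the 3034 members carried a symbol or synonym found in the RefSeq gene table of a later assembly. For 1865 members the same symbol also stood on a gene model that the abundance table names, as a second copy, a fragment or an antisense partner would. The names were taken as the file gives them and were not checked against sequence, and genes are cited by them below. These genes and the groups made from their names were chosen after the values had been seen, except where a fixed rule of size or level is stated.

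Most members were not detected. FPKM was 0 in all 13 libraries for 11744 members (56.7%), against 13.1% of named gene models, and a further 4125 were above 0 in 1 to 3 libraries only. At or above 1 FPKM were 7.73 to 9.50% of members per egg and 11.3 to 12.2% per embryo, with means of 8.97 ± 0.714% and 11.6 ± 0.387% (SD, n = 5 each). The groups did not overlap. The members counted rested on a median of 7.02 reads in embryos 2 and 3 and of 16.1 to 19.1 in eggs, and the part of depth in the difference was not tested. Named gene models reached 1 FPKM in 51.7 to 56.5% of cases per egg and 59.1 to 60.0% per embryo.

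Detection in every library of a stage was rarer. At least 1 FPKM in all 5 eggs was measured for 923 members and in all 5 embryos for 1492, and 718 members were in both sets. Another 140 members had at least 1 FPKM in every embryo and 0 in every egg, and 10 had the reverse pattern (0.676% and 0.0483%). As shares of all gene models, detected or not, both patterns were more frequent in named ones, with 374 (1.45%) and 21 (0.0813%). Among those detected in every library of the higher stage, members had the larger shares. These were 140 of 1492 members and 374 of 13720 named gene models for embryos. For eggs they were 10 of 923 and 21 of 11591. In the merged profiles the authors had pooled the reads of a stage to similar depth. There, 4740 members were above 0 in eggs and 6246 in embryos, and 2147 (10.4%) and 2463 (11.9%) at or above 1 FPKM. For named gene models the counts were 18786 and 20504 above 0, and 15032 (58.2%) and 15695 (60.7%) at or above 1 FPKM.

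**Figure D1:**
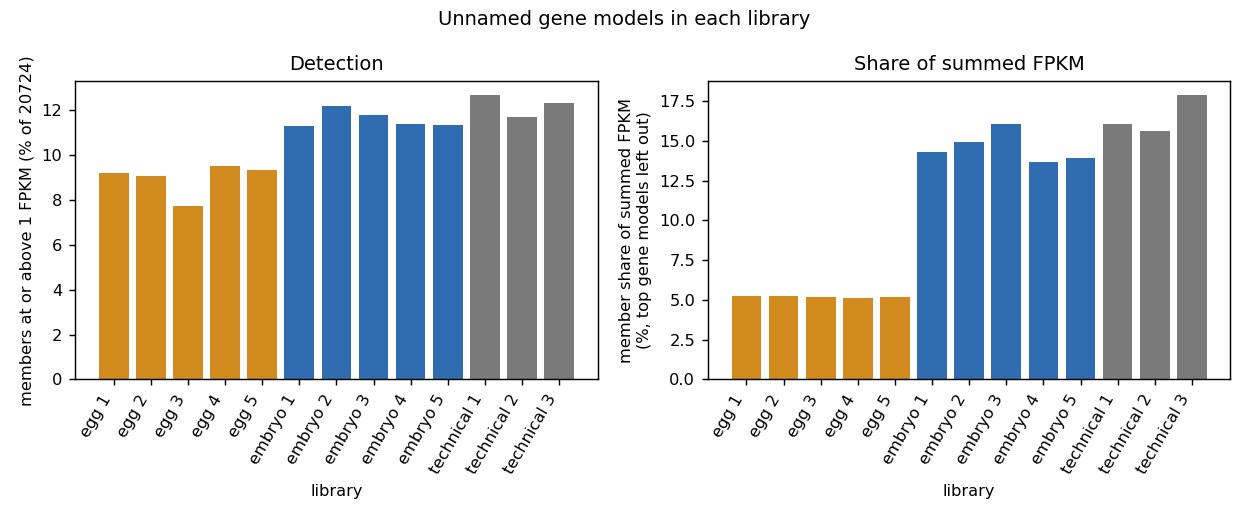
Left, percent of the 20724 members at or above 1 FPKM in each library; right, percent of the summed FPKM of a library that members held, without the 12 gene models that ranked among the 5 highest of any library. Bars are single libraries (egg, embryo, technical), and in both panels every embryo stands above every egg.

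Few members were abundant. The 10 single libraries together gave 2401 members a mean of 1 FPKM or more (11.6%), which were therefore tested, and a mean of at least 100 FPKM by 54. Of all summed FPKM, members held 3.08 ± 0.799% in eggs and 3.64 ± 0.801% in embryos (SD, n = 5 each), and the groups overlapped. A few gene models set that sum. Without the 12 gene models that ranked among the 5 highest of any library, of which 1 was a member, the share was 5.20 ± 0.0457% in eggs and 14.6 ± 0.932% in embryos, and no egg came near an embryo. Weighted by length, which approximates reads, members held 6.42 ± 1.65% in eggs and 11.2 ± 0.769% in embryos, and egg 5 alone had 9.37% against 5.61 to 5.73% in the other eggs.

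Between egg and gastrula, 901 of the 2401 tested members (37.5%) were higher in embryos and 438 (18.2%) were higher in eggs, by limma on log2(FPKM + 1) at an adjusted p under 0.05. Over all 19373 gene models tested, 31.6% were called higher in embryos and 25.2% higher in eggs (56.8% in either direction), and among the named ones 31.2% and 26.9% (58.1%). In 660 of the tested members (27.5%) every embryo was above every egg, and in 276 (11.5%) every egg was above every embryo, where the shares were 23.5% and 18.3% over all gene models tested and 23.8% and 19.9% over the named ones. A member high in 1 stage only could pass the filter on the mean through that stage alone. The median log2 change was 0.42 over the tested members and 0.12 over all gene models tested, a difference of 0.30 that was not tested. The split of calls depended on the scale. With each library scaled to a sum of 1000000 FPKM, 253 of 1993 tested members (12.7%) were higher in embryos and 657 (33.0%) in eggs. Over all 17917 gene models tested on that scale, the shares were 6.37% and 39.8%. That scaling moved the median of all gene models to -0.99 and of the members to -0.76, and the summed FPKM it divides by ran from 619304 to 4328481 per library. The median of the members was then 0.23 above that of all gene models. Without the filter on low values, 16.9% of 8564 members and 22.4% of all gene models were called higher in embryos, the reverse order of the shares above, and the medians were 0.0054 apart.

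The members higher in embryos had a median log2 change of 1.77, or 1.68 with a bound in place of the fitted value where eggs were too low to measure, and 84 of them had a fitted change over 4. In 286 of the 901, no egg had more than 3 recovered reads, and in 188 every egg was at 0. Over all gene models tested, eggs were at or under 3 reads in 979 of 6123 such calls, and over named ones in 556 of 4920. The members higher in eggs had a median of -1.48 (-1.33 with bounds), and 3 had a fitted change beyond 4. The medians of the calls over all gene models tested were likewise larger in embryos, at 1.53 and -1.27, and those of named gene models 1.44 and -1.23. Embryos had no more than 3 recovered reads in 90 of the 438 members higher in eggs, and were all at 0 in 34. The count at or under 3 reads was 255 of 4879 such calls over all gene models tested, and 135 of 4233 over named ones. A floor of 3 reads per library, averaged over the group, sets the bounds written as "at least" below, and they cover counting error only.

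**Figure D2:**
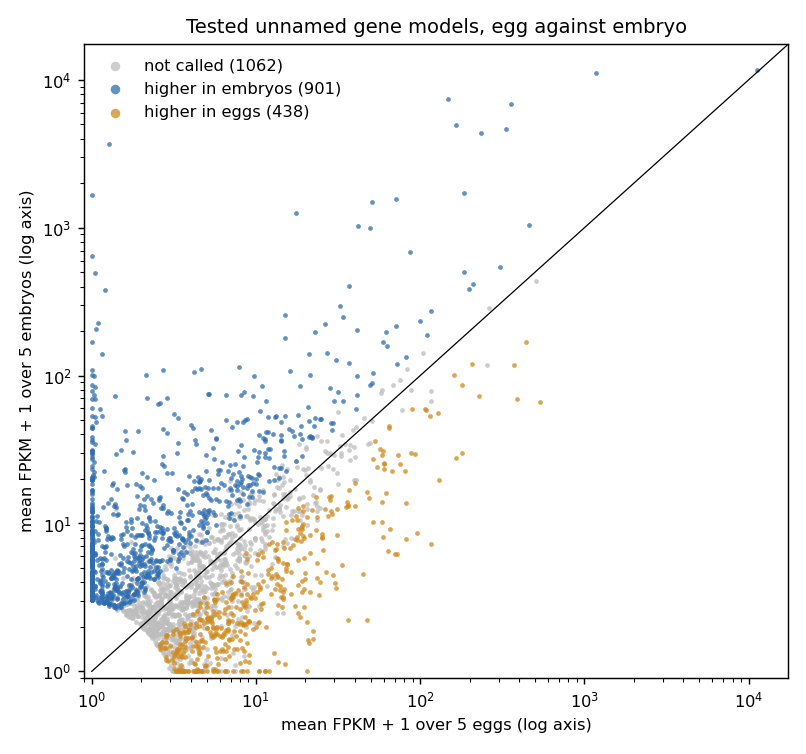
Mean FPKM + 1 over 5 eggs (horizontal, log axis) against 5 embryos (vertical, log axis) for the 2401 tested members; the line marks equal means. Of these, 901 were higher in embryos (blue), 438 were higher in eggs (orange) and 1062 were not called (grey), and the column of blue points at the left edge holds members at or near 0 in eggs.

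The 4 members with the largest rise, among those with 2 or more exons, at least 10 FPKM in embryos and no overlap, were all unnamed in both files and nearly absent from eggs. Of these, 3 lay over each other on scaffold 000279552. The first (3 exons, positions 112 to 4077, minus strand) measured 0, 0, 1.34, 0 and 0 FPKM in eggs 1 to 5 and 2289, 4768, 4123, 1776 and 5565 in embryos 1 to 5. It was therefore measured in 1 egg, by 1 recovered read, and at 1776 FPKM or more in every embryo. It was at least 1122-fold higher in embryos (limma, adjusted p = 4.45e-10). The second (positions 1325 to 4392, plus strand) was at or next to 0 in every egg and at 817, 2049, 2934, 514 and 2004 FPKM in embryos 1 to 5, at least 1001-fold higher in embryos (limma, adjusted p = 3.38e-09). The third (positions 557 to 6909, plus strand) measured 0, 0.256, 0, 0 and 0 FPKM in eggs and 404, 505, 677, 269 and 611 in embryos. It was at least 1207-fold higher in embryos (limma, adjusted p = 1.68e-10), with a CV over embryos of 33.0%, against 43.7% and 59.5% for the first and second. The first and second share exon bases on opposite strands, and because the strand setting of the counting is not given in the sources used here, their levels cannot be told apart.

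The fourth, on scaffold 000043242 (positions 904227 to 905707, minus strand, 2 exons), was at 0 in all 5 eggs and measured 685, 349, 325, 792 and 1051 FPKM in embryos 1 to 5. It shared no exon bases with another gene model, had 576 annotated coding bases of 817, and was at least 357-fold higher in embryos (limma, adjusted p = 8.17e-10). The technical libraries of stage 10.5 gave it 1420.4, 1212 and 964 FPKM, 2 of them above the highest single embryo. Among members of a single exon, 1 met the same criteria. It lay on scaffold 000016807 (positions 9684981 to 9685735) near *fam168b* on the same strand, and rose from 3.59, 0.626, 4.04, 1.23 and 3.38 FPKM in eggs 1 to 5 to 18.3, 10.2, 6.75, 15.3 and 17.5 in embryos 1 to 5. All eggs were below all embryos (log2 change 2.08 with an SE of 0.37, limma, adjusted p = 6.01e-04). The named neighbour was at 84.7 FPKM in eggs and 64.3 in embryos, with a log2 change of -0.37. No single-exon member met the criteria in the direction of eggs.

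Among the members with a name in the gene model file, developmental regulators of the gastrula included several of the largest rises. Members named *loc100497404*, *post*, *10a1.1* and *hmcn2* were also among the largest, with log2 changes of 5.76, 5.44, 5.38 and 4.99. First in the order of fitted changes was *bix3*, a Mix-type homeobox gene of the endoderm and mesoderm (scaffold 000102974, positions 4953307 to 4955526, minus strand). It was at 0 in all 5 eggs and at 161, 159, 172, 163 and 186 FPKM in embryos 1 to 5, so that the embryos lay within a narrow band (CV 6.78%). It was at least 186-fold higher in embryos (limma, adjusted p = 1.14e-11). *sox17a*, an HMG-box regulator of endoderm (scaffold 000058038, positions 4754730 to 4756806, minus strand), measured 0, 0, 0, 0.802 and 0 FPKM in eggs and 143, 130.1, 216, 133 and 69.3 in embryos. Embryo 3 was the highest and embryo 5 the lowest, and the gene was at least 107-fold higher in embryos (limma, adjusted p = 7.04e-09). Each also had 2 gene models under its own name in the abundance table.

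*mespb*, a bHLH regulator of the presomitic mesoderm, was on 2 members and on no gene model named in the table. On scaffold 000106789 (positions 406839 to 408806) it was at 0 in every egg and at 72.2, 70.8, 65.8, 77.9 and 53.2 FPKM in embryos 1 to 5, at least 55.2-fold higher in embryos (limma, adjusted p = 1.36e-10). On scaffold 000009266 (positions 8020442 to 8023348) it measured 0.313, 0, 0, 0.269 and 0 FPKM in eggs and 63.3, 59.4, 53.5, 55.0 and 61.9 in embryos, at least 67.4-fold higher in embryos (limma, adjusted p = 2.41e-10). Their embryo means were 68.0 ± 9.33 and 58.6 ± 4.27 FPKM (SD, n = 5), a difference that was not tested. *msx1*, a homeobox gene that responds to BMP signals, had 0, 0.208, 0, 0 and 0 FPKM in eggs and 48.3, 44.6, 71.4, 50.2 and 43.0 in embryos and was at least 77.5-fold higher in embryos (limma, adjusted p = 7.59e-10). *cxcr4*, the receptor of the chemokine CXCL12 that guides migrating cells (scaffold 000021603, positions 4688063 to 4690533, minus strand), was at 0 in every egg and at 51.8, 76.8, 70.2, 79.5 and 19.9 FPKM in embryos. Embryo 5 was the lowest of the embryos for *cxcr4*, and the gene was at least 47.2-fold higher in embryos (limma, adjusted p = 1.05e-07).

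**Figure D3:**
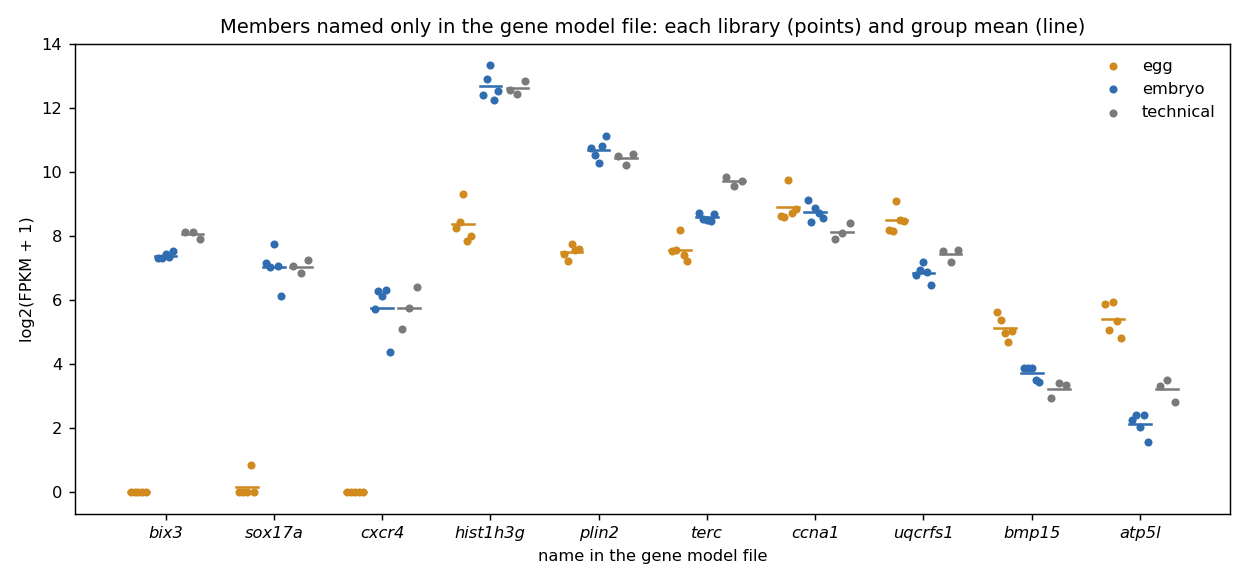
log2(FPKM + 1) of 10 members that are named only in the gene model file, 1 point for each egg, embryo and technical library and a line for each group mean. Eggs are at or near 0 for bix3, sox17a and cxcr4, eggs and embryos overlap for ccna1, and all eggs are above all embryos for uqcrfs1, bmp15 and atp5l.

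Groups were formed by name to place these members among their kind, and 6 groups were read in full. Over all gene models tested, 31.6% were called higher in embryos and 25.2% in eggs. The gene model file named 111 members for a homeobox, sox, fox or bHLH regulator, DNA-binding proteins that direct cell fate. The mean was under 1 FPKM in most of them, 24 were tested, 22 were higher in embryos and none was higher in eggs. Their median log2 change was 2.59 (2.97 with 16 of them at their bound), beside 0.12 over all gene models tested. These 16 had no egg above 3 recovered reads and passed the filter on the mean through embryos alone. The filter therefore fixed their direction, and the count and the median depend on it. Table-named gene models of the same name patterns gave 98 of 132 higher in embryos and 11 in eggs, with a median of 2.56 and 72 at a bound. With each library scaled to a sum of 1000000 FPKM, 11 of this group were called higher in embryos and none in eggs. Of all gene models tested on that scale, 6.37% were higher in embryos and 39.8% in eggs.

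Several members of this group were measured in eggs as well. *sox3*, an HMG-box gene of early ectoderm and neural plate (scaffold 000151989, 3 exons), measured 55.1, 65.0, 74.7, 70.6 and 45.5 FPKM in eggs 1 to 5 and 164, 133, 205, 188 and 90.8 in embryos 1 to 5. Eggs and embryos did not overlap (log2 change 1.28 with an SE of 0.23, limma, adjusted p = 6.39e-04), but the change had the opposite sign, -0.046, when libraries were scaled to a common sum. The gene model named *sox3* in the table was more abundant and was not called, at 313 FPKM in eggs and 374 in embryos (limma, adjusted p = 0.256). *sox11*, a neural HMG-box gene, was on 2 members: on scaffold 000043061 it went from 7.36 ± 3.68 FPKM in eggs to 47.4 ± 13.1 in embryos, and on scaffold 000142445 from 2.39 ± 1.11 to 10.1 ± 4.42 (SD, n = 5). Both rises passed the test (limma, adjusted p = 3.75e-05 and 8.25e-04), and the second shares exon bases with a named *sox11* model on the other strand. *hoxd1*, an anterior Hox gene, was also on 2 members, with embryo means of 15.7 and 6.32 FPKM and no egg above 3 recovered reads.

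Zinc finger names were on 98 members, of which 43 were tested, 21 were higher in embryos, 2 (*znf503* and *zbtb3*) were higher in eggs and 20 were not called. The shares called were 48.8% in embryos and 4.65% in eggs, against 31.6% and 25.2% over all gene models tested. The zinc finger members had a median log2 change of 0.61. Table-named gene models of this kind gave 134 of 315 higher in embryos, 47 higher in eggs and a median of 0.50. *sp5*, a target of Wnt signalling that itself represses Wnt targets, was at 0 in eggs and had a mean of 28.7 FPKM in embryos (limma, adjusted p = 4.02e-09). *znf839* rose from 6.70 to 47.8 FPKM and *zscan20* from 2.07 to 20.8 FPKM, on group means. On the scale of a common sum, 5 zinc finger members were higher in embryos and 6 in eggs. On that scale the shares over all gene models tested were 6.37% and 39.8%.

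Signalling genes of the Wnt, Nodal, BMP, FGF and Notch pathways were split between the stages. Of 50 members with such a name, 18 were tested, 9 were higher in embryos and 7 in eggs, and the table-named gene models of these patterns gave 64 and 21 of 130. The shares of the tested members were 50% and 38.9%, against 31.6% and 25.2% over all gene models tested. Among ligands, *nodal3.1*, a Nodal-related gene of the organizer in *Xenopus*, was at 0 in every egg and measured 4.70, 8.14, 3.31, 12.1 and 9.44 FPKM in embryos 1 to 5, at least 7.69-fold higher in embryos (limma, adjusted p = 9.41e-06). *bmp15*, a ligand of the TGF-beta family made by oocytes (scaffold 000036864, positions 3036716 to 3041118, minus strand), measured 48.9, 40.9, 30.4, 24.9 and 32.1 FPKM in eggs and 13.7, 13.7, 13.7, 10.5 and 9.82 in embryos. Every egg was above every embryo for *bmp15* (log2 change -1.43 with an SE of 0.20, limma, adjusted p = 1.10e-04), and no gene model carried its name in the table. Among Wnt receptors, *fzd10* was at 0 in eggs and at 5.23, 9.55, 10.4, 5.32 and 4.08 FPKM in embryos, at least 14.3-fold higher in embryos (limma, adjusted p = 3.75e-06). *fzd7*, which acts in the egg and the gastrula of *Xenopus*, went from 15.7 ± 4.06 to 41.4 ± 6.97 FPKM (SD, n = 5 each; log2 change 1.36 with an SE of 0.20, limma, adjusted p = 1.73e-04). It was no longer called on the scale of a common sum, where its log2 change was 0.05.

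Inhibitors and nuclear partners of the same pathways also went both ways. *spry4*, an inhibitor of FGF signalling, had 0.0659, 0.517, 0.445, 0 and 0.103 FPKM in eggs and 7.91, 9.36, 5.94, 9.88 and 6.63 in embryos (log2 change 2.87 with an SE of 0.22, limma, adjusted p = 1.27e-06). *notum*, which inactivates Wnt ligands, had 43.0, 14.4, 25.2, 16.9 and 21.8 FPKM in eggs and 7.79, 7.95, 8.41, 6.34 and 7.26 in embryos (log2 change -1.47 with an SE of 0.26, limma, adjusted p = 5.40e-04). Egg 1 was the highest of the eggs for *notum*, and all eggs exceeded all embryos, while the 2 tested *notum* models named in the table were not called. *dand5*, a maternal antagonist of Nodal and BMP in *Xenopus*, was at 17.1 ± 2.99 FPKM in eggs and 8.20 ± 1.28 in embryos (log2 change -0.97 with an SE of 0.18, limma, adjusted p = 7.09e-04), and shares exon bases with a gene model on the other strand. The gene model named *dand5* in the table went the other way, from 22.9 to 49.6 FPKM (limma, adjusted p = 9.46e-04). *pygo1* and *pygo2*, nuclear partners of beta-catenin, were both higher in eggs, with log2 changes of -1.36 ± 0.29 and -1.44 ± 0.31 (SE).

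**Figure D4:**
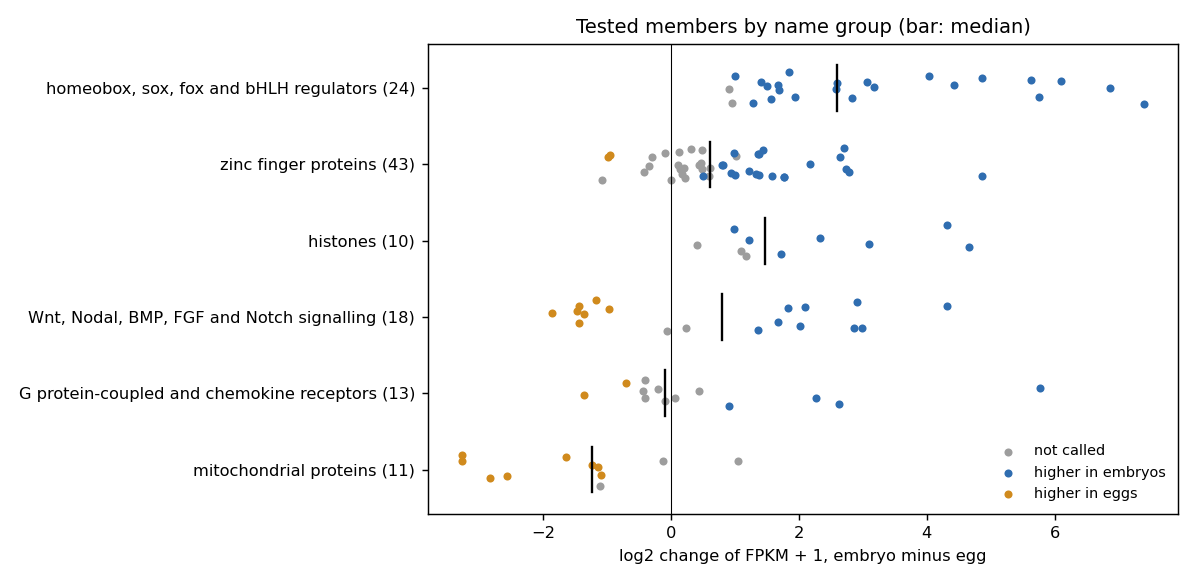
log2 change of FPKM + 1 (embryo minus egg) of each tested member in 6 groups formed by gene name, with the number tested in parentheses and a bar at the median; blue and orange points were called higher in embryos and in eggs. The homeobox, sox, fox and bHLH group and the histones have calls only to the right, and the mitochondrial proteins only to the left.

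Histone genes, whose replication-dependent copies lie in clusters and package new chromatin, were among the most abundant members. Of 10 members with a histone name, all were tested, 7 were higher in embryos and none in eggs, with a median log2 change of 1.47 (1.93 with 2 at their bound), where table-named histones gave 10 of 20 higher in embryos and 4 in eggs. The shares over all gene models tested were 31.6% and 25.2%. *hist1h3g* (scaffold 000256136, positions 267718 to 346751, plus strand, 2 exons) measured 304, 346, 636, 232 and 256 FPKM in eggs 1 to 5 and 5495, 7697, 10406, 4873 and 6003 in embryos 1 to 5. The lowest embryo was far above the highest egg, which was egg 3 (log2 change 4.32 with an SE of 0.29, limma, adjusted p = 3.71e-07). The gene model spans 79034 bases for a transcript of 2189 and overlaps a named *hist1h3g* model on the other strand that was at 202 FPKM in eggs and 84.7 ± 189 in embryos (SD, n = 5), a spread that 5 values reach only where 1 of them carries the mean, so that reads could not be assigned to 1 of the models from these files. On the scale of a common sum, 3 histone members were called higher in embryos and none in eggs. Of all gene models tested on that scale, 6.37% were higher in embryos and 39.8% in eggs.

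On scaffold 000074488, 2 members named *hist1h2ah* lie beside an unnamed one. The unnamed member (scaffold 000074488, positions 1725891 to 1731454, minus strand) was among the 4 highest in embryos, at 140.4, 139, 186, 126 and 141 FPKM in eggs and 6042, 6759.8, 11854, 6674 and 5546 in embryos. Embryo 3 was the highest and all embryos exceeded all eggs (log2 change 5.60 with an SE of 0.21, limma, adjusted p = 2.43e-09). The *hist1h2ah* members at positions 1728208 to 1729028 and 1731352 to 1732172 rose from 60.8 ± 27.3 to 195 ± 56.8 and from 31.5 ± 3.92 to 294 ± 121 FPKM (SD, n = 5; limma, adjusted p = 5.81e-04 and 1.07e-06). The first of them lies within the span of the unnamed member and shares no exon bases with another gene model. The second overlaps the end of the unnamed member and shares 103 exon bases with it on opposite strands. Because the strand setting of the counting is not given, the levels of these 2 cannot be told apart. Of the replication-independent variants, *h2afz* went from 208 ± 17.0 to 418 ± 85.6 FPKM and *h3f3b* from 115 ± 17.9 to 270.4 ± 45.5 (limma, adjusted p = 2.94e-04 and 7.96e-05). The named *h2afz* model on the other strand of the first fell from 87.9 to 15.1 FPKM. Both members overlap a named histone model on the other strand and both changes turned to the opposite sign, -0.34 and -0.11, on the scale of a common sum. The most abundant named *h2afz* model was not called, at 403 FPKM in eggs and 501 in embryos (limma, adjusted p = 0.141). Another, on scaffold 000060618, rose from 18.2 to 31.6 FPKM. No named *h3f3b* model was called higher in embryos. The most abundant was at 831 and 722 FPKM (limma, adjusted p = 0.552), and those on scaffolds 000102974 and 000027161 were called lower in embryos.

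Nuclear genes of mitochondrial proteins lay on the side of the egg. Of 20 members with such a name, 11 were tested, 8 were higher in eggs and none in embryos, with a median log2 change of -1.24, and table-named gene models of these patterns gave 134 of 262 higher in eggs, 24 in embryos and a median of -0.76. Over all gene models tested, the shares were 25.2% in eggs and 31.6% in embryos. *uqcrfs1*, the Rieske iron-sulfur subunit of respiratory complex III (scaffold 000046631, positions 2151005 to 2153080, minus strand), measured 294, 289, 555, 368 and 359 FPKM in eggs and 109.8, 122, 145, 118 and 87.5 in embryos. Egg 3 was the highest and no embryo reached an egg (log2 change -1.64 with an SE of 0.20, limma, adjusted p = 4.10e-05). The table-named *uqcrfs1* model fell less, from 105 FPKM in eggs to 76.9 in embryos (log2 change -0.45, limma, adjusted p = 0.0479). *atp5l*, subunit g of ATP synthase, measured 57.8, 32.7, 61.3, 39.7 and 27.2 FPKM in eggs and 3.83, 4.40, 3.10, 4.38 and 2.01 in embryos (log2 change -3.26 with an SE of 0.26, limma, adjusted p = 1.55e-06). Every egg was above every embryo for *atp5l* as well. *tomm7*, of the translocase of the outer membrane, had 2 to 17 recovered reads per egg and at most 1 per embryo, and was at least 2.56-fold higher in eggs (limma, adjusted p = 1.61e-04).

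The 4 members with the largest fall, by the same rule as for the rise, were measured in every egg. A member named *dclre1a*, for a nuclease of DNA crosslink repair (scaffold 000020641, positions 2664310 to 2665674, minus strand), measured 43.5, 42.1, 102, 28.9 and 15.1 FPKM in eggs and 0, 5.11, 1.02, 0 and 0.00514 in embryos (log2 change -4.57 with an SE of 0.58, limma, adjusted p = 4.86e-05). It shares exon bases with the named *dclre1a* model on the other strand, which was also lower in embryos, at 65.8 FPKM in eggs and 26.5 in embryos. The member on scaffold 000117539 (positions 370834 to 371628) measured 37.5, 36.9, 39.9, 43.6 and 19.1 FPKM in eggs and 2.82, 1.23, 1.31, 0.820 and 0 in embryos (log2 change -4.10 with an SE of 0.34, limma, adjusted p = 2.09e-06), with egg 5 the lowest egg. On scaffold 000029016 a member of 4 exons that spans 86428 bases measured 6.24, 12.0, 43.5, 21.4 and 14.7 FPKM in eggs and 0 in every embryo. It was at least 4.23-fold higher in eggs (limma, adjusted p = 6.58e-06), a bound held down by the floor of 3 reads, which is high per kilobase for a transcript of 521 bases. The member on scaffold 000016623 (positions 95135 to 146287) measured 108, 117, 162, 97.0 and 91.6 FPKM in eggs and 5.59, 7.98, 6.03, 6.82 and 4.69 in embryos (log2 change -4.00 with an SE of 0.19, limma, adjusted p = 2.16e-08), with CVs of 24.4% in eggs and 20.1% in embryos.

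The members with the highest mean in a stage were few and behaved differently from each other. The highest in both stages lay on scaffold 000000939 (positions 5547358 to 5548299, plus strand) and measured 110.0, 118, 475, 390.4 and 55181 FPKM in eggs 1 to 5 and 8821, 26206, 4674, 6619 and 11939 in embryos 1 to 5. Egg 5 was above every embryo and the other 4 eggs were below them all, so the groups overlapped and the egg mean rests on 1 library. The limma fit gave an adjusted p of 0.0373 (log2 change 3.85 ± 1.43, SE), the exact two-sided permutation test gave p = 0.0476, and the call was lost when any 1 of eggs 1 to 4 or embryos 1, 2, 4 and 5 was left out. Without egg 5 the log2 change was 5.44 and the adjusted p of limma 2.80e-05. The member shares exon bases with *rab26* on the other strand, whose own level was 42.5 FPKM in eggs and 46.2 in embryos.

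The second highest in both stages, on scaffold 000007546 (positions 674897 to 678339, 3 exons), measured 1161, 1202, 1748, 1129 and 609 FPKM in eggs and 11996, 13587, 13096, 10448 and 6829 in embryos. All embryos exceeded all eggs (log2 change 3.29 with an SE of 0.28, limma, adjusted p = 2.54e-06), and the technical libraries were higher still, at 25895, 21042 and 29345 FPKM. The third highest in eggs, on scaffold 000125077 (positions 505087 to 507504, with 846 coding bases of 1024), went the other way, from 632, 461, 581, 519 and 489 FPKM in eggs to 72.3, 54.1, 77.2, 62.2 and 58.4 in embryos (log2 change -3.03 with an SE of 0.15, limma, adjusted p = 2.55e-08). It lies near *mybl2* on the other strand, which was at 20.7 and 31.3 FPKM. The fourth highest in eggs was named *ccna1*, for the cyclin A1 of meiosis and early cleavage, and measured 397, 389.9, 867, 428 and 466 FPKM in eggs and 558, 348, 477, 428 and 379.8 in embryos. Egg 3 was the highest of all 10 libraries, the groups overlapped, and no difference was detected (log2 change -0.17 with an SE of 0.23, limma, adjusted p = 0.561). It shares 1728 of its 1799 bases with a named *ccna1* model on the other strand, which was lower in embryos (76.3 FPKM in eggs and 35.0 in embryos, limma, adjusted p = 0.00136), and the other named *ccna1* model fell from 479.8 to 65.7 FPKM. A member named *kpna2*, for an importin alpha of the egg, had 468, 445, 395, 444 and 439 FPKM in eggs and 185, 147, 246, 153 and 104 in embryos (log2 change -1.44 with an SE of 0.20, limma, adjusted p = 1.07e-04). It lies 156 bases from a named *kpna2* model on the same strand, which fell from 337 to 190 FPKM. Of other gene models with *kpna2* in a shared table name, that on scaffold 000163806 was not called, at 381 and 392 FPKM. On scaffold 000122517, 1 rose from 40.4 to 283 FPKM, and the remaining ones rose or were not called.

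Other abundant members were named for genes of varied function. *terc*, which in vertebrates is the RNA component of telomerase (scaffold 000004321, positions 4200995 to 4204534, minus strand), measured 184, 189, 291, 172 and 148 FPKM in eggs and 428, 371, 361, 359 and 411 in embryos. Every embryo exceeded every egg (log2 change 1.00 with an SE of 0.18, limma, adjusted p = 5.65e-04), but the log2 change was -0.32 on the scale of a common sum, and the gene model of 3436 bases carries 327 annotated coding bases. *plin2*, a coat protein of lipid droplets, rose from 174, 149, 216, 188 and 195 FPKM in eggs to 1743, 1476, 1245, 1810.0 and 2243 in embryos (log2 change 3.18 with an SE of 0.18, limma, adjusted p = 7.53e-08), and a named *plin2* model nearby on the same strand went from 651 to 1921 FPKM. *cldn6.1*, a claudin of tight junctions, had 343, 303, 903, 389 and 363 FPKM in eggs and 1209.6, 895, 1425, 911 and 745 in embryos. Egg 3 lay within the range of the embryos, and the difference passed the test (log2 change 1.26 with an SE of 0.29, limma, adjusted p = 0.00348), with a log2 change of -0.070 on the scale of a common sum.

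The last group by name showed no common direction. G protein-coupled and chemokine receptors, to which *cxcr4* belongs, gave 4 of 13 tested members higher in embryos and 2 in eggs (median log2 change -0.086), and table-named receptors 10 and 17 of 50. The shares of the tested members were 30.8% and 15.4%, against 31.6% and 25.2% over all gene models tested. The count in eggs was 1 when any 1 of eggs 1, 4 and 5 or embryos 1, 2, 3 and 4 was left out.

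Some members showed no detectable difference between the stages. The 3 with the smallest change among those at 10 FPKM or more in both stages were unnamed in both files. On scaffold 000050079 the member was at 13.6 ± 1.14 FPKM in eggs and 13.9 ± 3.68 in embryos (SD, n = 5 each). On scaffold 000000243 the member was at 31.3 ± 5.73 FPKM in eggs and 32.4 ± 12.0 in embryos (SD, n = 5 each). The third, on scaffold 000043242, was at 33.8 ± 5.52 FPKM in eggs and 33.2 ± 4.08 in embryos (SD, n = 5 each). The standard errors of their log2 changes were 0.19, 0.25 and 0.16, and in each the eggs and embryos overlapped. The 3 tested members with the most exons were large, with transcripts of 11864, 10409 and 11770 bases. A member of 70 exons over 510072 bases on scaffold 000018184, with 11328 coding bases of 11864, measured 0.986, 0.148, 0.803, 0.701 and 1.09 FPKM in eggs and 9.45, 7.61, 6.26, 7.63 and 11.0 in embryos, and all embryos exceeded all eggs (log2 change 2.43 with an SE of 0.23, limma, adjusted p = 5.67e-06). The member of 52 exons on scaffold 000097703 was at 2.86 ± 0.754 FPKM in eggs and 2.83 ± 0.336 in embryos (SD, n = 5 each), with no difference detected (limma, adjusted p = 0.976). The member of 51 exons named *myo15a*, for an unconventional myosin of hair cells, was at 2.88 ± 1.44 FPKM in eggs and 1.93 ± 0.792 in embryos (SD, n = 5 each), also with no difference detected (limma, adjusted p = 0.344).

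The share of members called higher in embryos differed with their structure. It was 36.0% of 1354 tested members with 2 exons, 37.6% of 726 with 3 to 5 and 44.3% of 309 with 6 or more, where named gene models gave 35.7%, 28.5% and 31.7%. For calls higher in eggs the members gave 18.6%, 18.3% and 16.8%, and named gene models 23.3%, 30.5% and 26.2%. With 2 exons, members and named gene models were therefore called higher in embryos about as often, and with more exons members were called so more often, a difference that was described and not tested. Of the 98 single-exon members, 12 were tested, 3 were higher in embryos and 1 was higher in eggs.

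By length, 31.3% of tested members under 1000 bases, 37.8% of those from 1000 to under 2000 and 43.1% of 2000 or more were higher in embryos. Named gene models showed the same order at lower shares, with 23.0%, 27.9% and 35.4%. Calls higher in eggs were 17.0%, 17.3% and 20.1% in members and 29.9%, 28.4% and 25.2% in named gene models. Members with coding bases over at least 75% of their length gave 45.4% of 414 higher in embryos. Those from 25 to under 75% gave 35.2% of 1137, and those under 25% gave 36.8% of 850. Named gene models gave 31.6%, 31.3% and 27.5%.

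**Figure D5:**
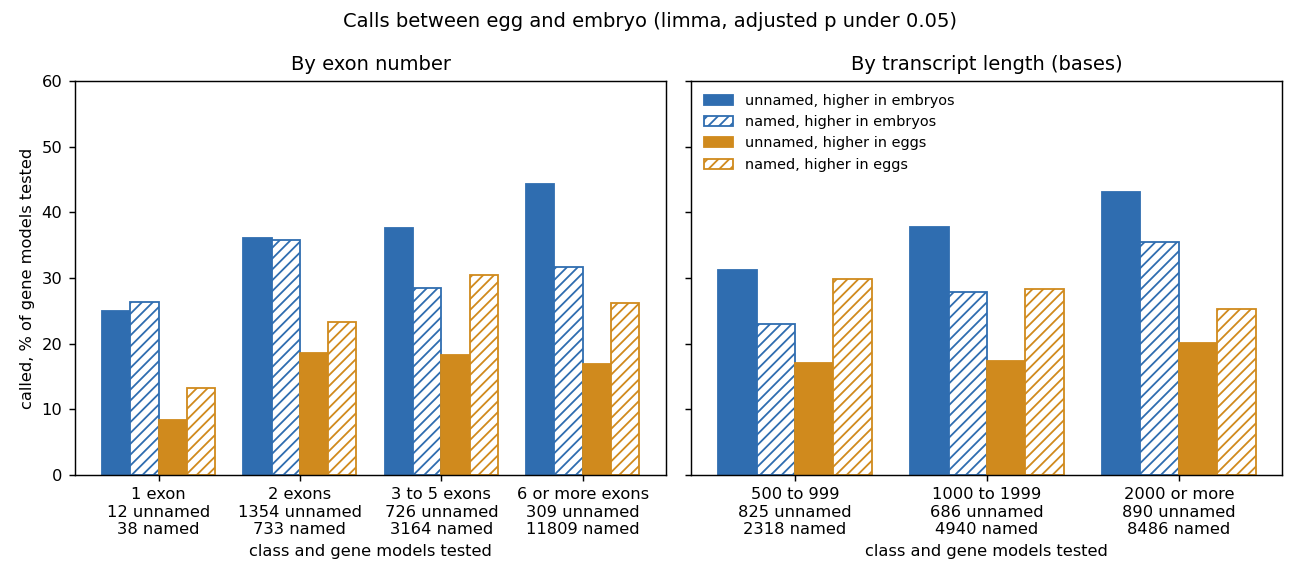
Percent of tested gene models called higher in embryos (blue) and in eggs (orange) by exon number (left) and by transcript length in bases (right); solid bars are members, hatched bars named gene models, and the numbers tested stand under each class. In the class of 6 or more exons, 44.3% of members and 31.7% of named gene models were higher in embryos, and in both the share in embryos is highest in the longest class.

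Most members lay away from named genes. No named gene model was within 5 kb of 13156 members, and 992 of these were tested, of which 446 (45.0%) were higher in embryos and 165 (16.6%) in eggs. Where a member overlapped a named gene model on the other strand, 272 of 842 (32.3%) were higher in embryos and 157 (18.6%) in eggs. For members within 5 kb on the same strand the counts were 60 and 52 of 218 (27.5% and 23.9%), and for members that overlapped one on the same strand 56 and 14 of 122 (45.9% and 11.5%). The shares over all gene models tested were 31.6% and 25.2%, and the position classes were not tested against them. A member and its nearest named gene model were both tested in 1171 cases, and were both higher in embryos in 194, both higher in eggs in 114 and opposite in 80. In eggs the member was below its named neighbour in 885 of these pairs (75.6%). Of the 2401 tested members, 1060 shared exon bases with a gene model on the other strand, 3 on the same strand and 4 on both. Without them all, 527 of 1334 members (39.5%) were higher in embryos and 240 in eggs.

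Some scaffolds held several called members. Of the 901 members higher in embryos, 174 lay on the 25 scaffolds that held 5 or more of them. Of the 438 members higher in eggs, 5 or more lay on each of 4 scaffolds. Scaffold 000035086 had the most, with 15 of its 19 tested members higher in embryos and 1 in eggs, called between positions 18316 and 369825. On scaffold 000223728 it was 10 of 12, with a highest embryo mean of 225 FPKM and no egg mean over 0.954. All 12 therefore passed the filter on the mean through embryos. That filter fixed their direction, and no call higher in eggs was possible there. The histone-bearing scaffolds 000074488 and 000256136 had 12 of 21 and 6 of 8. The share called higher in embryos was 31.6% over all gene models tested, and shares of named gene models on these scaffolds are not given here. Longer scaffolds hold more gene models, and the counts were not tested against that.

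The spread between the single libraries of a stage was wider in members than in named gene models. Over members at 1 FPKM or more in all 5 libraries, the median CV was 36.0% in eggs (923 members) and 31.3% in embryos (1492), against 29.1% and 24.7% in named gene models. The members were also of lower level, with a median of 8.03 FPKM in eggs against 12.8. Within the range of 20 to 100 FPKM the medians were 28.0% and 24.0% in eggs and 26.2% and 22.2% in embryos. The 3 technical libraries gave 29.0% for members and 24.0% for named gene models, at lower depth. From 20 to 100 FPKM they gave 22.8% and 18.2%. These medians were described and not tested.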

How the data were processed

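RNA of 5 single eggs, 5 single embryos and 3 technical libraries was depleted of ribosomal RNA by the authors, sequenced, and mapped as reads of 42 bases to the JGI 7.1 scaffolds with gmap. The deposited FPKM values were made by the authors with Cufflinks 2.1.1 (CASAVA 1.8.2, SAMtools 0.1.18 and Cuffdiff also stand in the submitters' processing notes) on 1 transcript per locus. The gene models were built by the authors with pita from sequences that include transcripts of this study's own libraries. How strand entered the counting is not given in the sources used here. The deposited columns look scaled to each other by a step that these sources do not name. Median of ratios factors of the 10 single libraries ran from 0.98 to 1.06, while their summed FPKM ran from 619304 to 4328481. The calls between egg and embryo rest on that scale. The merged FPKM profiles of each stage were deposited as pooled values and used for detection only.

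The members, lists and name groups were chosen with earlier results of these data known. Gene names of members came from the deposited gene model file, and 54041 of 54110 table lengths equalled the summed exons of that file. The 19373 gene models whose 10 single libraries averaged 1 FPKM or more were compared on log2(FPKM + 1) by limma 3.58.1 (R 4.3.3), with a trend in the prior variance and Benjamini-Hochberg adjustment over all of them, and called at an adjusted p under 0.05. The sign is embryo minus egg, and fold changes on this scale understate the change of low gene models. The technical libraries stayed out of the fit. With 5 against 5 libraries the exact permutation test cannot go below p = 0.00794, which every member with no overlap reaches. Whole reads were recovered where low FPKM values fell on steps, for fragments of 200 ± 80 bases, and 88.4 to 91.7% of values below 20 reads lay within 0.1 read of a whole number. Unnamed members were picked by a fixed rule: in each of the classes of 1 exon and of 2 or more exons, the 4 with the largest change in each direction among called members at 10 FPKM or more in the higher group with no overlap, the 4 with the highest mean in each stage, the 3 with the most exons among those tested, and the 3 with the smallest change at 10 FPKM or more in both stages. All other genes named were chosen after the values had been seen, and some members and groups are not reported here. Alternatives were another filter, pseudocount, scaling, variance prior, replicate block, member definition and neighbour distance, and each library left out in turn. The scripts were tested on simulated data and run in Python 3.11.15 with pandas 2.3.3.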

Additional observations from a re-analysis of the deposited data

Results flagged for a closer look

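In 50 groups of 5 libraries, 14 held a library far from the other 4. The cut-off is set for about 1 in 20 groups of normal values, and that rate cannot be applied here. FPKM need not be normal, the members were picked for their structure, change or level, and groups at 0 throughout could not be flagged. In 3 of the 14 the other libraries were all at 0. Egg 3 had 7.73% of members at or above 1 FPKM, against 9.07 to 9.50% in the other eggs, and it was also the library far above the other eggs for 3 abundant members. These were *ccna1* (867 FPKM against 390 to 466), the unnamed member on scaffold 000074488 from position 1725891 (186 against 126 to 141) and *hist1h3g* (636 against 232 to 346).

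Egg 5 stood apart for the member on scaffold 000000939 from position 5547358, with 55181 FPKM against 110.0 to 475 in the other eggs. Weighted by length, members held 9.37% of its FPKM, against 5.61 to 5.73% in the other eggs. It was low for the member on scaffold 000117539 from position 370834, with 19.1 FPKM against 36.9 to 43.6.

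Among embryos, embryo 4 was low in the share of length-weighted FPKM held by members, with 9.85% against 11.4 to 11.7%. Embryo 3 was high for the unnamed member on scaffold 000074488 from position 1725891, with 11854 FPKM against 5546 to 6759.8 in the other embryos. Embryo 2 was high for *dclre1a*, with 5.11 FPKM against 0 to 1.02. Embryo 1 was high for the member on scaffold 000043242 from position 4369, with 40.4 FPKM against 30.8 to 32.7.

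The 3 members on scaffold 000279552 were each above 0 in a single egg: the member from position 112 had 1.34 FPKM in egg 3, the member from 1325 had 1.19e-05 in egg 3, and the member from 557 had 0.256 in egg 2. These values stand for 2 reads or fewer.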

How the results depend on the processing

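No call turned to the other direction under any alternative run, but scaling each library to a sum of 1000000 FPKM changed the balance. It gave 253 members higher in embryos and 657 in eggs of 1993 tested (12.7% and 33.0%, against 6.37% and 39.8% over all gene models). The median log2 change was -0.76 (0.42 as reported). By exon number the counts were 1 and 3 (1 exon) and 144 and 390 (2 exons). In embryos they were 74 (3 to 5 exons) and 34 (6 or more). All 253 embryo calls and 434 egg calls were shared with the reported ones. Under it the log2 change of *terc* was -0.32, of *cldn6.1* -0.070, of *sox3* -0.046, of *h2afz* -0.34 and of *h3f3b* -0.11. Without a filter on low values, where 8564 members were tested, 1446 were higher in embryos (16.9%, against 22.4% of all gene models; 9, 437 and 275 for 1, 3 to 5 and 6 or more exons), with a median of 0.10. At a mean of at least 5 FPKM fewer members were tested (892), and 412 and 201 were higher in embryos and in eggs, with a median of 0.69, being 237 and 116 for 2 exons, 115 and 60 for 3 to 5 and 58 and 24 for 6 or more. The median was 0.76 with a pseudocount of 0.1 and 0.50 with median of ratios scaling.

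In alternatives chosen after seeing the data, leaving out members that share exon bases gave 527 and 240 calls and a median of 0.49, and leaving out members named in the gene model file a median of 0.36. With neighbours taken within 1 kb instead of 5 kb, 15 and 17 members near a named gene on its strand and 39 and 23 on the other strand were higher in embryos and in eggs. Detection was 13.9% in eggs and 22.9% in embryos above 0 FPKM, and 12.0% and 17.9% at 0.3 FPKM. In the merged profiles it was 10.4% and 11.9% at 1 FPKM. The share of FPKM was 5.20% and 14.6% without the top gene models and 6.42% and 11.2% by length. The CV was 44.9% and 38.9% over members above 0 in all 5 libraries.

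With 1 library left out, 799 to 931 members were higher in embryos and 389 to 478 in eggs, with medians of 0.35 to 0.49. By exon number these were 3 to 4 and 1 to 3 (1 exon, with 2 without egg 2 and 3 without egg 3), 431 to 499 and 219 to 282 (2 exons), 241 to 285 and 117 to 140 (3 to 5), and 124 to 144 and 47 to 56 (6 or more). The share of FPKM was 2.86 to 3.40% in eggs and 3.43 to 3.83% in embryos, and the CV 32.3 to 37.4% and 26.6 to 33.0%.

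The replicate numbers name separate animals, and the study names no pairing of egg and embryo numbers. The deviations of equal numbers correlated at -0.017 to 0.074. Unequal numbers were not correlated for reference, so these values cannot decide whether libraries were paired. With a replicate block 898 members were higher in embryos and 430 in eggs, of which 870 and 403 were among the reported calls. The depth of 1366787 to 3817575 reads per single library leaves a member of 1 FPKM with few reads, so that absence from a stage was not detectable below the floors given.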

Other observations

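The identifiers of gene models end in a pair of letters, V or X, whose meaning is not given in the sources used here. Of the members, 17738 carried XX, 1807 XV, 773 VX and 406 VV. The share tested was 5.28% for XX, 28.4% for XV, 75.8% for VX and 89.9% for VV. Named gene models had the same order, with 17.1%, 62.5%, 87.2% and 98.5%. Members marked VV had a median log2 change of 0.82, with 187 higher in embryos and 71 in eggs of 365 tested (51.2% and 19.5%). Those marked XX had 0.31, with 321 and 158 of 937 (34.3% and 16.9%). The shares over all gene models tested were 31.6% and 25.2%. Among named gene models of at least 500 bases, 35.8% carried VV, and the medians were 0.066 for VV and 0.22 for XX.

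The technical libraries of stage 10.5, which entered no comparison, had 11.7 to 12.7% of members at or above 1 FPKM and 16.5 ± 1.19% of summed FPKM on members without the top gene models (SD, n = 3). For *terc* they read 935, 755 and 858 FPKM, above every single embryo, and for the member on scaffold 000007546 from position 674897 also above every single embryo. The names in the gene model file and in the abundance table did not match throughout, since 3492 gene models of at least 500 bases that are named in the table had no name in the gene model file, and a single symbol, *moap1*, stood on 18 members.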
